A study of Mus musculus with 21 samples.

Results

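The acute-phase genes followed here are serum amyloid A1 to A4 (Saa1, Saa2, Saa3, Saa4), lipocalin 2 (Lcn2), leucine-rich alpha-2-glycoprotein 1 (Lrg1), haptoglobin (Hp), the orosomucoids Orm1 and Orm2, and the iron hormone hepcidin (Hamp). They, and the gene lists used below, were chosen by symbol with earlier results of these data known. All 10 of these genes were found among the 24391 gene rows of the count tables. Messenger RNA was counted by RNA sequencing in the brain, liver and skin of newborn (postnatal day 0) C57BL/6 mice, with 1 library per mouse and tissue, 21 libraries in all. The KI group was 2 mice heterozygous for the knock-in allele Jak1 (H595D, I596I, Y597Y), which pairs an amino acid substitution in the kinase Jak1 with 2 synonymous changes, and the WT group was 5 wild-type mice. No group carried the synonymous changes alone, so their share of any difference cannot be told apart from that of the substitution. KI mice of this line were bred from a mosaic male, the allele is carried in the germline and not limited to a cell type, and the labels give neither litter nor sex. The comparisons ask how each of the 10 genes differed between KI and WT mice in each tissue, and whether the liver difference and the skin difference were of unequal size.

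The acute-phase response is the change in liver output that follows infection or injury. Interleukin 6 binds its receptor and gp130, JAK1 and related kinases phosphorylate STAT3, and STAT3, often together with C/EBP and NF-κB factors, raises transcription of secreted proteins in hepatocytes. Hepcidin is driven by the same STAT3 route and, separately, by bone morphogenetic protein (BMP) signals that report iron stores. Serum amyloid A proteins travel on lipoproteins, haptoglobin binds free haemoglobin, lipocalin 2 withholds iron-carrying siderophores from bacteria and is also a granule protein of neutrophils, and orosomucoids carry drugs and lipids in plasma.

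In the mm9 build, the build of the count tables, the 4 serum amyloid genes lie together on chromosome 7, with Saa3 at 53967368 to 53971046, Saa4 at 53983387 to 53987913, Saa1 at 53995871 to 53998350 and Saa2 at 54007203 to 54009684. Hamp lies on the minus strand of the same chromosome at 31727390 to 31729036, and Lrg1 on the minus strand of chromosome 17 at 56259103 to 56261369. Lcn2 lies at 32240153 to 32243317 on chromosome 2 and Hp at 112099030 to 112103072 on chromosome 8. Orm1 (63005594 to 63009197) and Orm2 (63023483 to 63026912) are neighbours on chromosome 4. Of all 75-base windows in their transcripts, 86.2% for Orm1 and 86.0% for Orm2 occur in no other gene, the rest being shared between the orosomucoids, so a part of their reads could not be assigned to 1 of them. The share is 95.9% for Hamp, whose copy Hamp2 holds the rest, 99.6% for Saa1 and Saa2, and 100% for the other 5 genes.

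RefSeq promoter sequences of the GRCm38.p6 build were at hand for 8 of the 10 genes, Hp and Orm1 being the exceptions. Lrg1, Hamp, Lcn2 and Saa3 were the genes whose KI libraries lay above all WT libraries in liver or skin. For these, and for Hamp2, the copy of Hamp, the 250 bases before the transcription start are shown. They were searched on both strands for a STAT motif (TTCNNNGAA), a C/EBP motif (TTGCNNAA), an NF-κB motif (GGG and TTCC with 3 bases between them) and the BMP response element GGCGCC, and the letters found are in capitals.
Hamp, chr7:30944030-30944279, minus strand: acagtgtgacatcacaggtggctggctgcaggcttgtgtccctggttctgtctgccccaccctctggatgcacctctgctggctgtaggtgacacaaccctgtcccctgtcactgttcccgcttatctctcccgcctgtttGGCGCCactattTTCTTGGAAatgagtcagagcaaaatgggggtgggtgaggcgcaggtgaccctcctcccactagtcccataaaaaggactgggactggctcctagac
Hamp2, chr7:30924182-30924431, minus strand: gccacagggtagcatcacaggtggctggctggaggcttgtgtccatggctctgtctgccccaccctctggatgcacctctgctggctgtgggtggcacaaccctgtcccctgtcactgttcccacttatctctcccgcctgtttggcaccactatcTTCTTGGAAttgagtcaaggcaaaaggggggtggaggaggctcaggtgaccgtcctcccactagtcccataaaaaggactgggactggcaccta
Lrg1, chr17:56121947-56122196, minus strand: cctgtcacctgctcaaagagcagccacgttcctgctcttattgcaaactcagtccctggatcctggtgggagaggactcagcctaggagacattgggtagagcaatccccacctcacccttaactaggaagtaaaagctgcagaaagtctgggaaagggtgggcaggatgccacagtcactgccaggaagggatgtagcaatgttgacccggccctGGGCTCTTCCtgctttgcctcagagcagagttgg
Lcn2, chr2:32387740-32387989, minus strand: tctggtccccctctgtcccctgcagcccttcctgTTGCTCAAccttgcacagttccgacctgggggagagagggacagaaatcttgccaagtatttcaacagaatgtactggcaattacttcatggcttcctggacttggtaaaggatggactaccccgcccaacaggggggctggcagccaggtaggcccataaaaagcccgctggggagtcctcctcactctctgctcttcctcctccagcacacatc
Saa3, chr7:46715677-46715926, minus strand: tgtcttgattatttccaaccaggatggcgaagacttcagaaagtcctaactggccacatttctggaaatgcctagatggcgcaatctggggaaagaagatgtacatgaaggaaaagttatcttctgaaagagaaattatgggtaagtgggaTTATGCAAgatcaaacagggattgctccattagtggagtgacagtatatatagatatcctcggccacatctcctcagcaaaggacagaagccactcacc
Hamp was the one gene of the 8 with the STAT letters, TTCTTGGAA, at 97 to 89 bases before the start, and it also held the BMP element at 109 to 104. Hamp2 had the same STAT letters at 94 to 86 and no BMP element. Lrg1 held only an NF-κB match, at 34 to 25. The C/EBP letters were found in Lcn2 (216 to 209) and Saa3 (99 to 92), and also in Saa1, Saa2, Saa4 and Orm2. Among all 32851 promoters of the same length, 7.02% held the STAT motif, 9.56% the C/EBP motif, 4.65% the NF-κB motif and 9.59% the BMP element. A match describes letters in this window and does not show that a factor binds there, and the absence of a match does not bear on a factor acting elsewhere.

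Between 26549326 and 38388133 reads per library were counted on genes (median 32240708). Levels within a tissue are given as CPM, the count scaled to the library's total and adjusted by the TMM factors of that tissue's libraries. The tissue labels were matched by their markers. Summed CPM of 10 hepatocyte genes was 162680 to 202784 in the livers and 3.4 to 40.3 in the skins. In the brains it was 879 to 973 in KI and 40.1 to 2566 in WT. The 6 keratinocyte genes summed to 848 to 13706 in the skins, at most 2.95 in the livers and 29.7 to 68.4 in the brains. The 6 neuronal genes summed to 5594 to 7912 in the brains and 22.0 to 46.1 in the skins. Each list was thus highest in its own tissue but not absent from the others. These are bulk tissues, in which fewer cells of a type and less RNA per cell cannot be told apart. The study's own quality check gave the skin RNA lower integrity scores than the liver RNA.

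In WT mice, 6 of the 10 genes had their highest level in the liver. To compare genes, CPM scaled over all 21 libraries was divided by the exon length in kilobases. On that scale the WT livers held Hp at 3610 ± 334 (SD, n = 5), Lcn2 at 203 ± 33.0, Lrg1 at 93.9 ± 12.6, Hamp at 91.0 ± 31.9, Saa4 at 45.9 ± 9.87, Saa3 at 15.5 ± 8.93 and Orm1 at 6.05 ± 0.874. Lrg1 and Hamp were not separated beyond their spread, and the annotated exons of Lcn2 are longer than its coding transcript, which makes its value a low estimate. Saa1, Saa2 and Orm2 were close to absent from the newborn liver, at 0.398 ± 0.264, 0.225 ± 0.119 and 0.247 ± 0.189, from 1 to 10 counts per WT library, and did not differ beyond their spread.

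The skin had a different order. Per kilobase, WT skin held Hp at 36.6 ± 13.6 (SD, n = 5), Orm1 at 21.4 ± 11.8, Lrg1 at 4.65 ± 1.43, Lcn2 at 3.62 ± 4.16 and Orm2 at 1.22 ± 0.383, and the means of Saa2, Saa3, Saa4 and Hamp were between 0.0792 and 0.241. Of these neighbours, the intervals of 1 SD overlapped for Hp and Orm1, for Lrg1 and Lcn2, and for Lcn2 and Orm2. Orm1 and Orm2 were lower in WT liver than in WT skin, by log2 differences of -1.82 (SE 0.361, adjusted p = 0.00022) and -2.30 (SE 0.531, adjusted p = 0.00081) in edgeR's quasi-likelihood test with Benjamini-Hochberg adjustment over all genes. Saa1 in WT skin stood at 3.77 ± 8.41 per kilobase, and this mean was that of 1 mouse: WT 2 had 414 counts, and the other 4 WT skins had 0 or 1. Its liver-minus-skin difference of -3.24 (adjusted p = 0.0758, edgeR) became 4.65 (adjusted p = 0.0139) without WT 2, and its skin-minus-brain difference of 4.10 became -3.64.

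In WT brain every mean was at most 0.300 per kilobase. Orm1 and Orm2 had 0 or 1 count in each WT brain and Hamp had at most 2. In the edgeR fit of all 21 libraries, 25 of the 30 tests of these genes between pairs of WT tissues were called at an adjusted p under 0.1, where 72.7% (liver against skin), 83.2% (liver against brain) and 79.9% (skin against brain) of all genes tested were called, so tissue differences were the rule and not particular to these genes. The liver-minus-skin difference on the log2 scale was 9.54 for Hamp, 9.11 for Saa4, 6.62 for Hp, 5.94 for Saa3, 5.82 for Lcn2 and 4.34 for Lrg1.

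**Figure D1:**
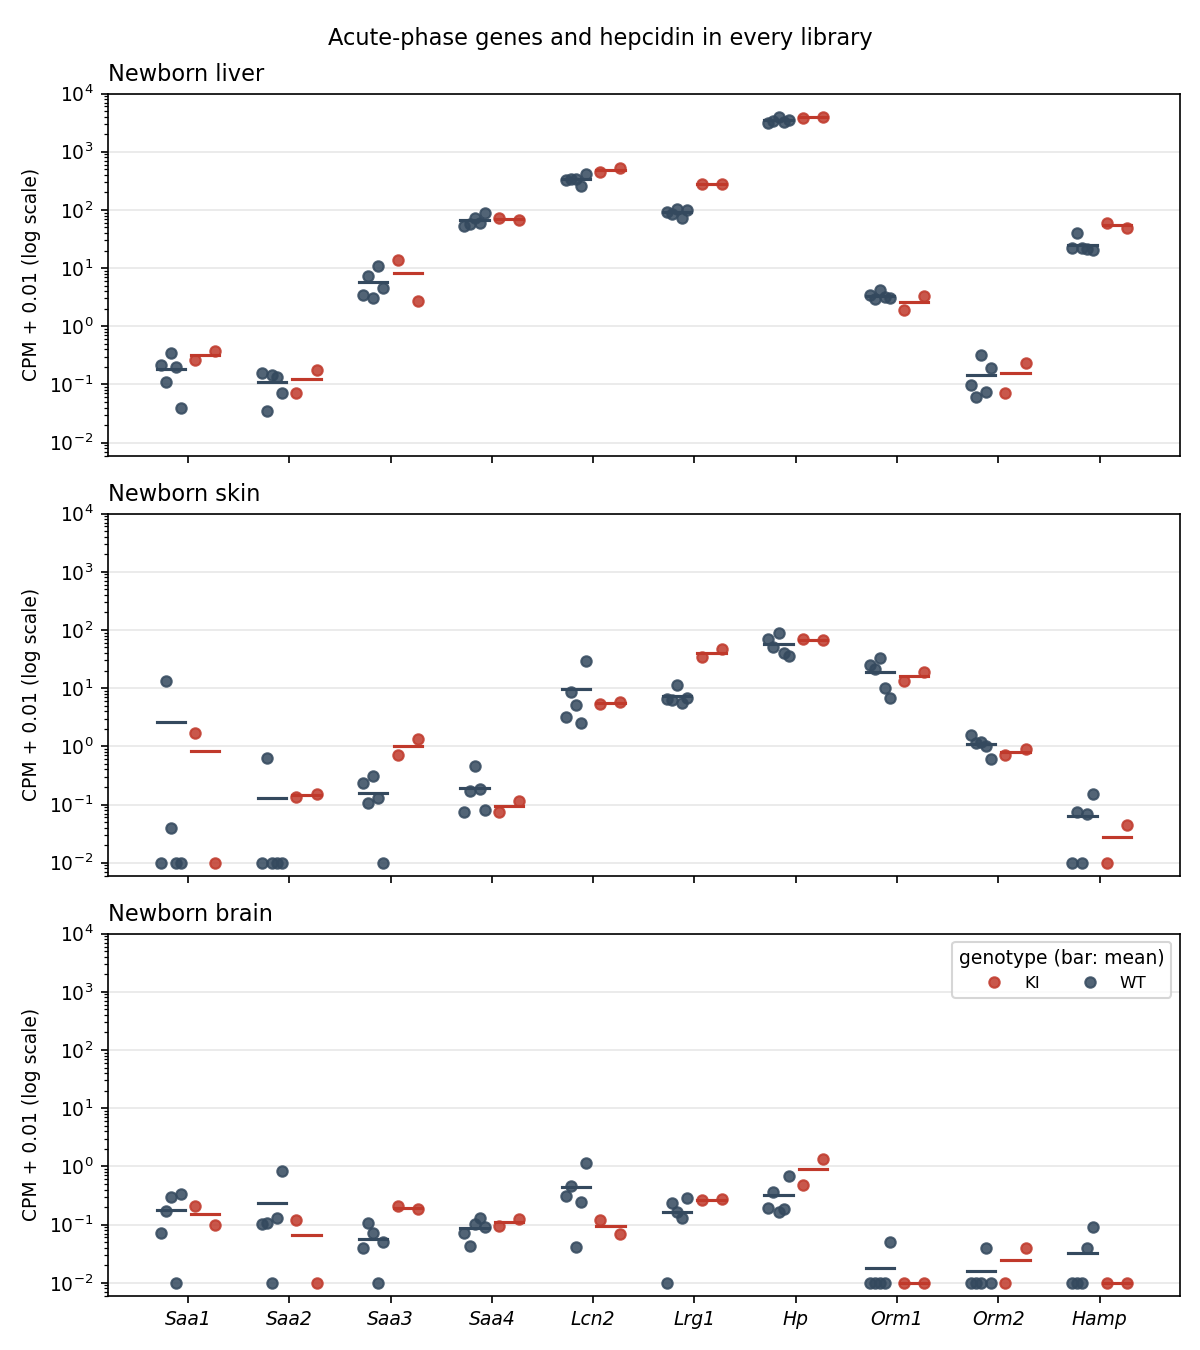
Level of the 10 genes in every library of newborn liver, skin and brain, as CPM plus 0.01 on a log axis, with KI mice in red, WT mice in dark blue and bars at the group means. Hp, Lcn2, Lrg1, Saa4 and Hamp were the most abundant in liver, and the KI points of Lrg1 lay above the WT points in liver and skin.

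In the liver, Lrg1 and Hamp rose in the KI mice, 2 of the 8 genes that could be tested, against 3.89% of all 14966 genes that were higher in KI liver by the same rule (edgeR, adjusted p under 0.1). None of the 8 was called lower, as 1.68% of all genes were. Saa2 and Orm2 had too few counts to be tested. Among the 8, the KI livers lay above all 5 WT livers for Lrg1, Hamp and Lcn2, as did those of 13.0% of all genes tested.

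Lrg1, a secreted glycoprotein that modifies TGF-β signals in vessels and is made by hepatocytes and neutrophils, showed the largest and steadiest rise. It stood at 278 CPM in KI 1 and 277 in KI 2, against 92.3, 83.5, 105, 71.6 and 101 CPM in WT 1 to WT 5. Both KI livers were more than any WT liver by a wide margin, and the KI values were almost the same. The log2 fold change was 1.62 (SE 0.133), or 3.07-fold with a 95% interval of 2.49 to 3.78 (adjusted p = 0.00076, edgeR). It passed the test in every fit that left out 1 mouse, with log2 fold changes of 1.54 to 1.69.

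Hamp encodes hepcidin, which closes the iron exporter ferroportin. Its level was 59.7 and 48.4 CPM in the KI livers and 22.4, 40.4, 22.3, 21.1 and 20.5 CPM in WT 1 to WT 5. Both KI livers lay above every WT liver, but WT 2 lay closer to KI 2 than to the other WT mice. The log2 fold change was 1.09 (SE 0.246), or 2.13-fold with a 95% interval of 1.45 to 3.13 (adjusted p = 0.0536, edgeR). Without WT 2 it was 1.33 (adjusted p = 0.0033), while the call was lost without KI 1 (adjusted p = 0.301), KI 2 (0.239), WT 1 (0.105) or WT 3 (0.101), and in the fit of all 21 libraries (0.266). Hamp2 was at 8.53 and 7.90 CPM in KI against 3.09 to 6.43 in WT, a log2 fold change of 0.97 (SE 0.278) with an adjusted p of 0.107 from edgeR.

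**Figure D2:**
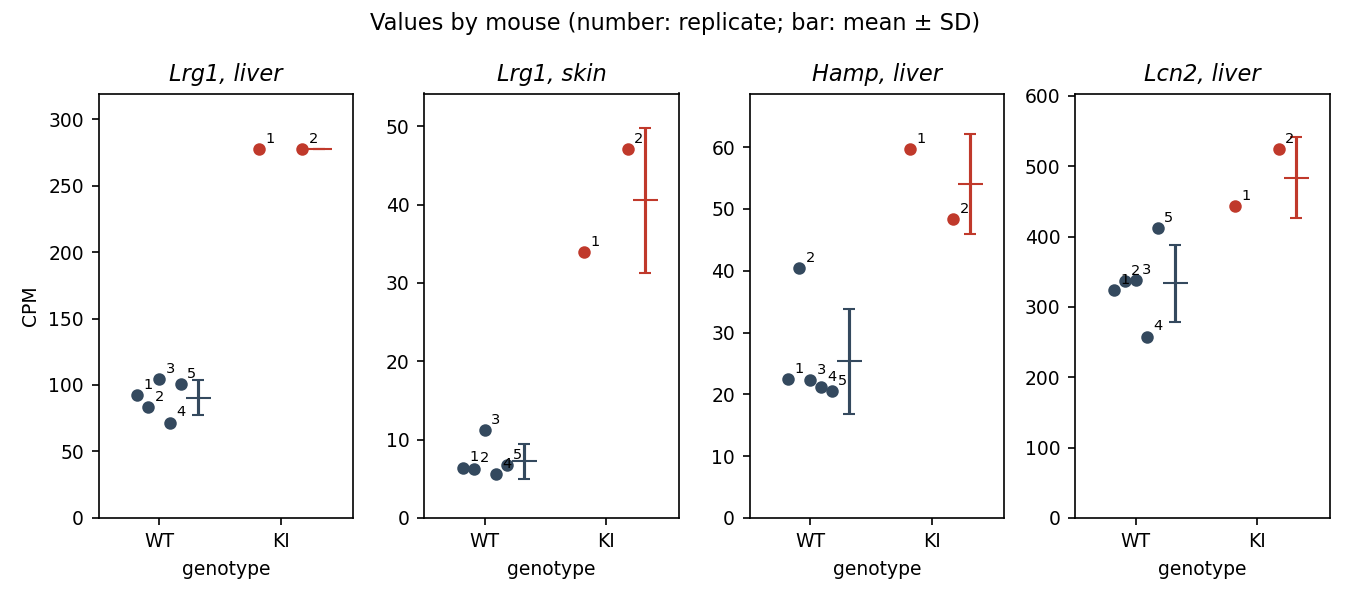
CPM by mouse for Lrg1 in liver and skin, and for Hamp and Lcn2 in liver, with linear axes from 0, the replicate number beside each point and bars at the mean ± SD (WT n = 5, KI n = 2). In each panel both KI points lay above all WT points, and the nearest pairs were WT 5 (412 CPM) and KI 1 (443 CPM) for Lcn2 and WT 2 (40.4 CPM) and KI 2 (48.4 CPM) for Hamp.

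Lcn2 was abundant in every liver. It stood at 443 and 525 CPM in the KI mice and at 324, 337, 338, 258 and 412 CPM in WT 1 to WT 5. Both KI values were above the highest WT value. The log2 fold change of 0.54 (SE 0.157, 95% interval 0.18 to 0.89) did not pass the test (adjusted p = 0.115, edgeR). DESeq2 called it (adjusted p = 0.0272), and so did edgeR without WT 4 (0.0788) or without WT 5 (0.0556).

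Of the remaining genes, Hp was the most abundant and differed little. It was at 3791 and 3974 CPM in KI against 3124, 3332, 4022, 3240.2 and 3566 CPM in WT 1 to WT 5, a log2 fold change of 0.17 with a 95% interval of -0.09 to 0.43 (adjusted p = 0.493, edgeR). The interval leaves room for a rise of up to 1.35-fold. Saa4, the constitutive member of the serum amyloid family, was at 71.9 and 66.4 CPM in KI and 53.5 to 88.4 in WT (log2 fold change 0.07, 95% interval -0.35 to 0.49).

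Saa3, which macrophages and fat cells make in inflammation, differed more between the KI livers (SD 7.93 CPM, n = 2) than among the WT livers (SD 3.28 CPM, n = 5). It was at 13.98 CPM in KI 1 and 2.76 in KI 2, with 3.41, 7.32, 3.00, 10.9 and 4.57 CPM in WT 1 to WT 5. Its log2 fold change of 0.52 ranged from -1.06 without KI 1 to 1.26 without KI 2. Saa1, the main inducible serum amyloid of adult liver, had 8 and 13 counts in the KI livers and 1 to 10 in the WT livers (0.249 and 0.370 against 0.0301 to 0.341 CPM), and a log2 fold change of 0.85 with a 95% interval of -0.78 to 2.49. Saa2 had 2 and 6 counts in KI and 1 to 5 in WT. Orm1 was at 1.93 and 3.27 CPM in KI and 2.93 to 4.26 in WT (log2 fold change -0.36, 95% interval -0.97 to 0.25), and Orm2 had 2 and 8 counts in KI and 2 to 9 in WT.

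**Figure D3:**
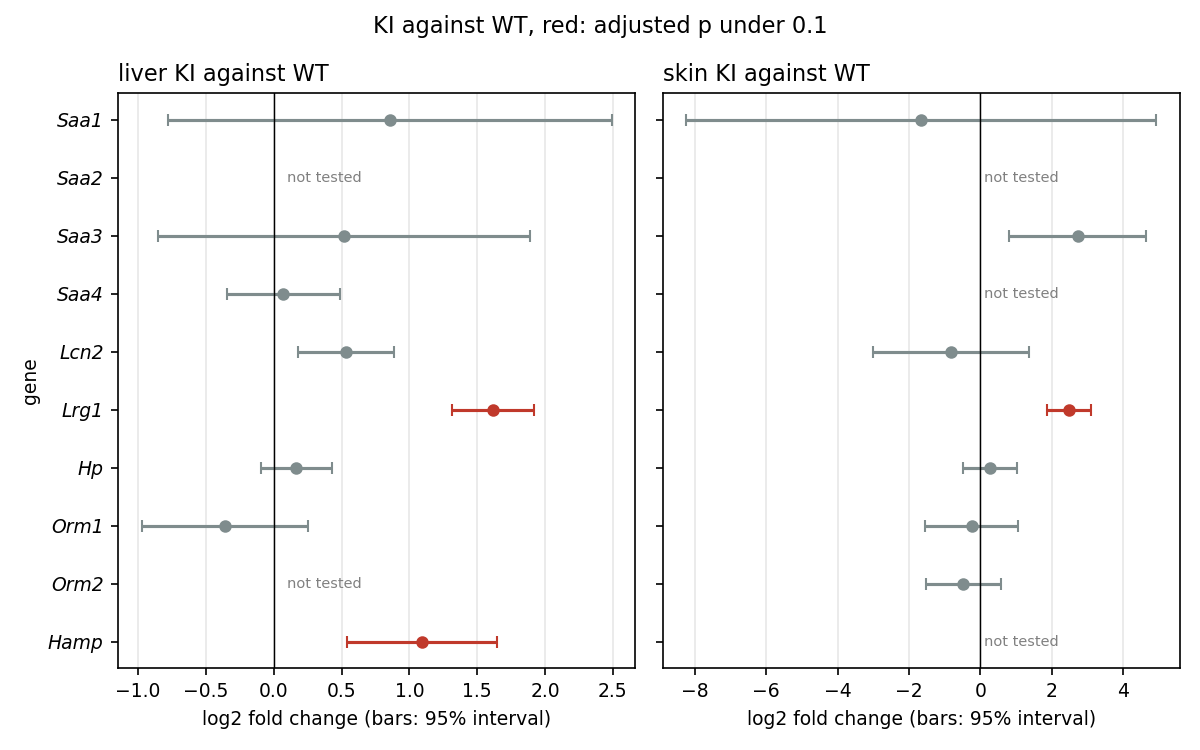
Log2 fold change of KI against WT with its 95% interval (edgeR) for each gene in liver (left) and skin (right), red where the adjusted p was under 0.1; the 2 panels have different scales. Lrg1 stood at 1.62 in liver and 2.48 in skin, and the intervals of Saa1 and Saa3 were wide in both tissues.

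The RNA of 28 genes of the IL-6 and STAT3 pathway, a list that also holds genes of the IL-1 and TNF routes, was followed in the same livers. Of the 27 tested, 4 rose and none fell by the same rule, where 3.89% of all genes rose and 1.68% fell, and their median log2 fold change was 0.33, where the median over all genes was -0.02. Il6, the cytokine, was at 2.09 and 0.966 CPM in KI and 0.0314 to 0.376 in WT, a log2 fold change of 2.89 (adjusted p = 0.0525, edgeR). That value rests on 67 and 34 counts in KI and 1 to 13 in WT. Il6 reached the count minimum for testing in 2 KI livers and 1 WT liver, so its KI libraries brought it into the test. A difference was built into that choice, and its place among the 4 is a description. Socs3, the feedback inhibitor that STAT3 induces, was at 75.7 and 82.7 CPM in KI and 9.02 to 26.2 in WT, a log2 fold change of 2.09 (SE 0.314, adjusted p = 0.012). Stat3 itself rose by a log2 fold change of 0.43 (adjusted p = 0.0377) and Tnfrsf1a, the main receptor of TNF, by 0.45 (adjusted p = 0.0604). Without 1 of the KI mice in turn, Il6, Stat3 and Tnfrsf1a lost the call in both fits and Socs3 in the fit without KI 2, and Il6 also lost it without WT 2 (adjusted p = 0.103) and Tnfrsf1a without WT 1 (0.108). Jak1, the edited kinase, was at 196 and 208 CPM in KI and 147 to 173 in WT (log2 fold change 0.30, adjusted p = 0.125), and the transcription factors Cebpb and Cebpd had log2 fold changes of 0.55 (adjusted p = 0.267) and 0.46 (adjusted p = 0.441).

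Other genes of the positive acute phase were followed through a list of their own. Of 26 tested, 9 rose in KI liver and none fell (edgeR), where 3.89% of all genes rose and 1.68% fell. The median log2 fold change was 0.49, against -0.02 over all genes, and 25 were above 0. Among the called genes the largest changes were those of Serpina3g (2.11, adjusted p = 0.010), Fgl1, a hepatocyte-made fibrinogen-like protein (1.14, adjusted p = 0.0034), the protease inhibitor Serpina3n (1.13, adjusted p = 0.0037) and the copper carrier ceruloplasmin, Cp (0.93, adjusted p = 0.0146). Without KI 2, Serpina3g (adjusted p = 0.145) and Cp (0.211) lost the call. Fgl1 was at 1676 and 1452 CPM in KI and 638 to 847 in WT. For the fibrinogen chains Fga, Fgb and Fgg, log2 fold changes were 0.31, 0.34 and 0.34, none of which passed the test (adjusted p = 0.153, 0.166 and 0.202). Negative acute-phase genes, such as albumin and transferrin, had a median log2 fold change of -0.11, and 0 of 12 were called by edgeR, with 0 of 12 at an unadjusted p under 0.05 and 0 by DESeq2.

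**Figure D4:**
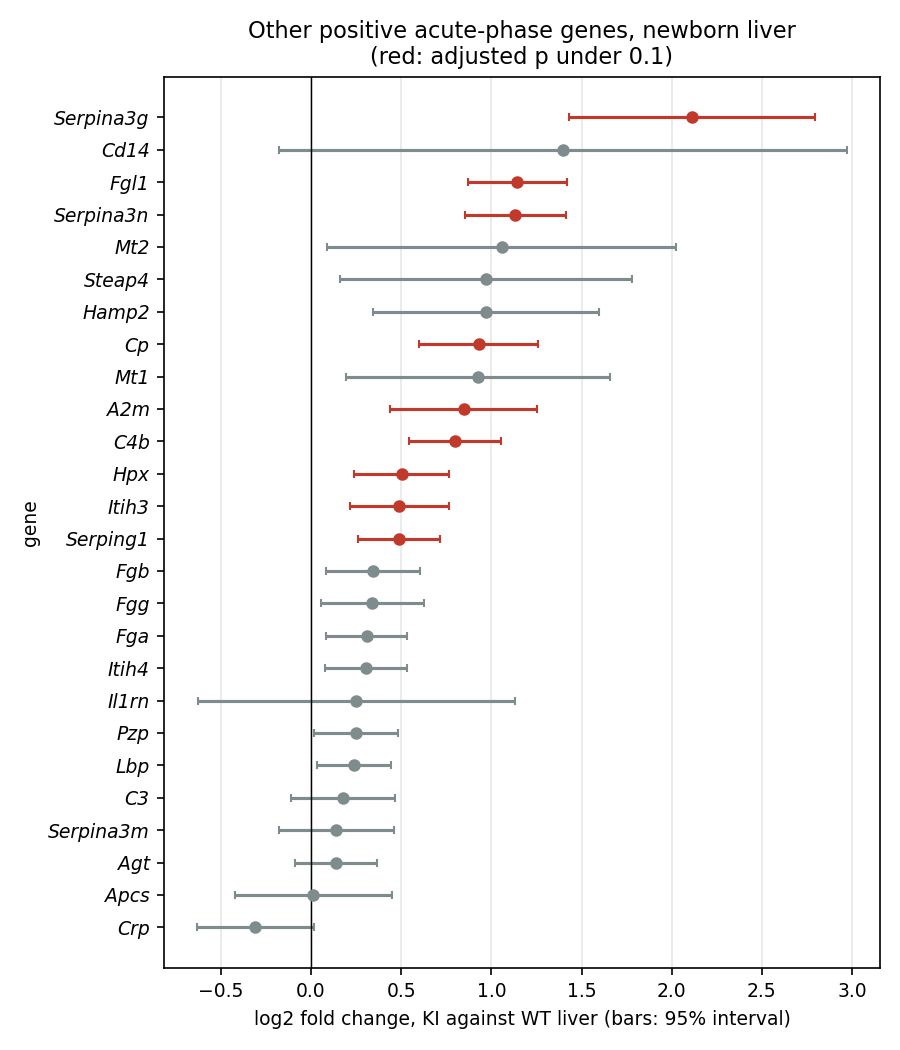
Log2 fold change of KI against WT liver with its 95% interval (edgeR) for the 26 other positive acute-phase genes tested, ordered by size and red where the adjusted p was under 0.1. The 9 called genes ran from 0.49 to 2.11, and Crp (-0.31) was the one gene below 0.

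The iron-sensing route to hepcidin was followed through 23 genes. In the liver 1 of them rose, Hfe, a regulator of hepcidin (log2 fold change 0.54, adjusted p = 0.0685, edgeR), none fell, and the median was 0.03. That 1 of 23 is close to the 3.89% of all genes called higher, so the count is not a result about the list. Hfe lost the call without KI 1, KI 2, WT 1, WT 2 or WT 3 (adjusted p of 0.113 to 0.386). Bmp6, the main BMP ligand for hepcidin, was at 0.685 and 0.711 CPM in the KI livers against 1.97, 3.27, 3.86, 3.23 and 0.963 in WT 1 to WT 5. Its log2 fold change was -1.92 (SE 0.537) with an adjusted p of 0.1004, just outside the threshold, and DESeq2 called it (adjusted p = 0.0054). Of the BMP target genes in the list, none was called: log2 fold changes were 0.12 for Id1 (95% interval -0.48 to 0.73), 0.03 for Smad7 (-0.34 to 0.40), 0.49 for Smad6 (0.11 to 0.87, adjusted p = 0.173, edgeR) and 0.42 for Atoh8 (-0.38 to 1.22).

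Markers of some cell types also differed between the genotypes. Summed levels of the KI mice are given lower first, here and for the skin. Of 13 neutrophil genes tested, 6 were called higher in KI liver, where 3.89% of all genes were, and 13 had a log2 fold change above 0. Their summed level was 6815 and 8092 CPM in KI and 4256 to 5596 in WT, no gene of the list was at 0 in all livers, and S100a8 rose by a log2 fold change of 0.64 (adjusted p = 0.0519, edgeR). Neutrophils themselves make Lcn2, Lrg1 and Hp, and the part of these cells in the values of those genes was not tested. Of 8 macrophage genes, 2 were called higher, where 3.89% of all genes were (summed 1232 and 1421 CPM in KI, 935 to 1109 in WT). Of the 8, 7 had a log2 fold change above 0, and Cd163 went the other way (-0.65, adjusted p = 0.365, edgeR). Of 5 erythroid genes 1 was called lower, as were 1.68% of all genes (summed 2391 and 2503 in KI, 2831 to 3900 in WT). Of 10 hepatocyte genes, 0 were called by edgeR, 1 had an unadjusted p under 0.05 and 1 was called by DESeq2, with a sum of 162680 and 168986 CPM in KI and 166310 to 202784 in WT. Of 6 fat-cell genes, 3 were tested and 2 were called higher, where 3.89% of all genes were. These were Fabp4 (log2 fold change 1.35, adjusted p = 0.00086, edgeR) and Pparg (0.74, adjusted p = 0.0487). The other tested gene, Cidec, went the other way, with a log2 fold change of -1.22 (adjusted p = 0.336, edgeR) and both KI livers below all WT livers. The 6 fat-cell genes summed to 209 and 213 CPM in KI and 73.7 to 97.6 in WT. Adipoq, which marks mature fat cells, had 0 counts in both KI livers and at most 2 in a WT liver. The part of macrophages, erythroid cells and the cells that express Fabp4 was not tested either.

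In the skin, Lrg1 alone among these genes rose in KI mice, 1 of the 7 tested, in a tissue where 0.0247% of 16163 genes tested were called higher (edgeR, adjusted p under 0.1) and 0.0% lower. At an unadjusted p under 0.05 (edgeR), 738 genes passed, 2 of these 7 among them, Lrg1 and Saa3. Saa3 was tested only because its KI libraries reached the count minimum for testing, so its part in this count was built in. DESeq2 called 107 genes, of which Lrg1 was the one member. Lrg1 was at 34.0 CPM in KI 1 and 47.1 in KI 2, against 6.40, 6.28, 11.2, 5.63 and 6.73 CPM in WT 1 to WT 5. The groups were far apart, with the lowest KI skin more than any WT skin. The log2 fold change was 2.48 (SE 0.267), or 5.59-fold with a 95% interval of 3.64 to 8.59 (adjusted p = 0.0899). Its size held in every fit that left out 1 mouse, between 2.22 and 2.75, but its call was kept only without WT 3 (adjusted p = 0.0244). Without KI 1, KI 2, WT 1, WT 2, WT 4 or WT 5 the adjusted p was 0.395, 0.924, 0.41, 0.339, 0.156 and 0.315.

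Saa3 and Lrg1 were the 2 tested genes whose KI skins lay above all WT skins, as did those of 4.91% of all genes. Saa3 was at 0.693 and 1.33 CPM in KI (22 and 38 counts) and at 0.229, 0.0961, 0.298, 0.118 and 0 in WT 1 to WT 5, where the 0 allows up to 0.106 CPM. The gene entered the test only through its KI libraries, so a difference was built into the choice, and its log2 fold change of 2.72 (SE 0.834, adjusted p = 0.859) is given as a description.

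Hp, Orm1 and Orm2 did not differ between the genotypes beyond the spread of the skins. Hp was at 70.1 and 66.0 CPM in KI and at 69.8, 50.4, 86.9, 40.7 and 36.1 in WT 1 to WT 5 (log2 fold change 0.26, 95% interval -0.49 to 1.02). Orm1 was at 13.4 and 19.0 CPM in KI and at 25.0, 21.3, 32.5, 10.1 and 6.84 in WT 1 to WT 5 (log2 fold change -0.24, 95% interval -1.55 to 1.06), and Orm2 at 0.693 and 0.876 in KI and 0.599 to 1.57 in WT. Orm1 and Hp were set beside a fat-cell gene in the same skins. Adipoq, the adipokine adiponectin, was at 428 and 1050 CPM in KI and at 826, 591, 1104, 136 and 382 in WT 1 to WT 5, and WT 3 was highest and WT 4 and WT 5 lowest among WT mice for all 3 genes. The KI skins departed from this order. KI 2 had more Adipoq than WT 1 and WT 2 but less Orm1, and KI 1 had less Adipoq than KI 2 but more Hp. Fat content of the samples was not measured apart from such genes, and its part in these values was not tested.

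**Figure D5:**
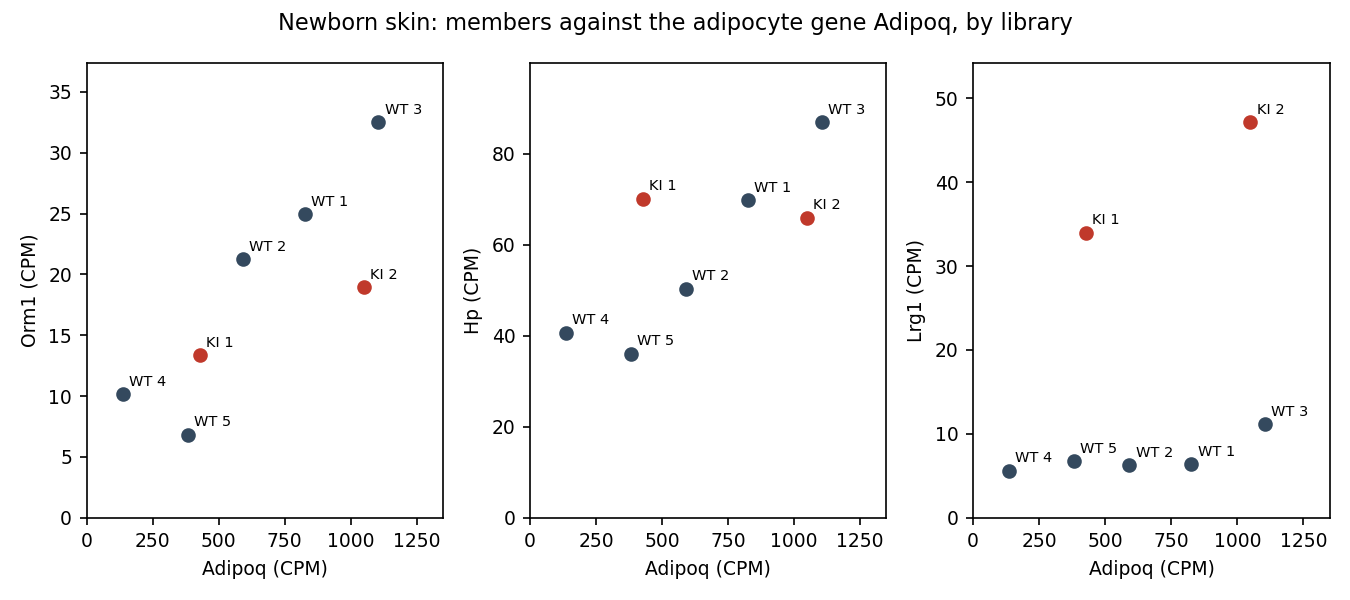
CPM of Orm1 (left), Hp (middle) and Lrg1 (right) against CPM of Adipoq in the 7 skin libraries, with KI in red and WT in dark blue. Orm1 and Hp were highest in WT 3, the skin with the most Adipoq, and Lrg1 was highest in KI 2 and KI 1.

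The skin values of Lcn2 and Saa1 each turned on 1 WT mouse. Lcn2 was at 5.23 and 5.68 CPM in KI and at 3.14, 8.43, 5.09, 2.504 and 28.8 in WT 1 to WT 5, and its log2 fold change of -0.81 (adjusted p = 0.999, edgeR) became 0.19 without WT 5. Saa1 had 53 and 0 counts in the KI skins and 414 in WT 2, and its log2 fold change of -1.66 had a 95% interval from -8.24 to 4.93. Saa2 was seen in the same WT 2 skin, with 19 counts, and in the KI skins with 4 counts each, and was not tested. Saa4 and Hamp, with at most 15 and 4 counts in any skin, were not tested either. The keratin content of the skins varied widely, with a sum over 6 keratinocyte genes of 848 CPM in KI 2, 11715 in KI 1 and 1424 to 13706 in the WT skins.

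Of the IL-6 and STAT3 genes in the skin, 1 of 28 was called by edgeR, where 0.0247% of all genes were called higher. The called gene was Cebpd, a transcription factor of the acute-phase response. It was at 93.2 and 91.4 CPM in KI and 33.5 to 45.2 in WT, a log2 fold change of 1.21 (SE 0.123, adjusted p = 0.0899, edgeR), and it was called in none of the 7 fits that left out 1 mouse. Log2 fold changes of 2.74 for Il6 (adjusted p = 0.906), 1.38 for Socs3 (0.944) and 0.44 for Stat3 (0.999) did not pass the test. Il6 reached the count minimum in 2 KI skins and 1 WT skin. Over the 28, the median log2 fold change was 0.31, against -0.03 over all genes, and 22 were above 0. At an unadjusted p under 0.05 (edgeR) 7 passed, as did 738 of all 16163 genes, and DESeq2 called 3 of the 28 and 107 genes in all. Of the other positive acute-phase genes 0 of 22 were called by edgeR or DESeq2, with 6 at an unadjusted p under 0.05 (edgeR). The median log2 fold change was 0.44 against -0.03 over all genes, and 14 of the 22 were above 0. Fga, Fgb and Fgg had log2 fold changes of -3.36, -3.13 and -4.57, but were tested only because WT libraries reached the count minimum. Of 6 macrophage genes tested in skin, 0 were called by edgeR and 1 by DESeq2, with 4 at an unadjusted p under 0.05 and all 6 above 0. Their list summed to 545 and 727 CPM in KI and to 375 to 520.1 in WT, and the part of these cells in the skin values of Lrg1 and Saa3 was not tested. Of the 12 neutrophil genes tested in skin, 0 were called by edgeR or DESeq2, with 2 at an unadjusted p under 0.05, and their sum was 23.5 and 34.0 CPM in KI and 19.0 to 41.5 in WT.

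The brain held little of this RNA in either genotype, and only Hp and Lcn2 had enough to be tested. Neither was called, and 0.0% of 16322 genes were called by edgeR, with 1732 genes and 1 of the 2 at an unadjusted p under 0.05. DESeq2 called 604 genes and gave neither of the 2 an adjusted p. Hp was at 0.474 and 1.31 CPM in KI and at 0.182, 0.357, 0.157, 0.179 and 0.678 in WT 1 to WT 5, so the groups overlapped. Its log2 fold change of 1.54 (adjusted p = 0.465) passed the test without WT 5 (2.03, adjusted p = 0.0807) and in the fit of all 21 libraries (1.64, adjusted p = 0.0901). Lcn2 was at 0.112 and 0.0581 CPM in KI, 4 and 2 counts, and at 0.0314 to 1.12 in WT, and it was tested only because WT libraries reached the count minimum. Lrg1 was not tested in brain, and the groups overlapped, at 0.251 and 0.261 CPM in KI (9 counts each) and 0 to 0.279 in WT. Saa3, also not tested, was at 0.195 and 0.174 CPM in KI (7 and 6 counts) and at most 0.0973 in WT (3 counts).

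The sizes of the liver and skin differences were compared directly, as the KI effect in liver minus the KI effect in skin over 14 libraries. Of the 9 genes tested, 0 were called by edgeR, against 0.0647% of 17014 genes, and DESeq2 called 140 genes and 0 of the 9. Lrg1 was the only one of them with an unadjusted p under 0.05, as were 1175 of all genes. Relative to the WT mean, Lrg1 was 3.07 and 3.06 times as high in the KI livers and 4.69 and 6.51 times as high in the KI skins. The difference of the log2 fold changes was -0.90 (SE 0.323, 95% interval -1.60 to -0.20, unadjusted p = 0.0153, adjusted p = 0.588, edgeR), a smaller fold in the liver that did not pass the test over all genes. In level the order was the reverse: on the scale of all libraries, Lrg1 was at 385 CPM in KI and 127 in WT livers, and at 35.7 in KI and 6.28 in WT skins.

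For Saa3 the difference was -2.24 (95% interval -4.60 to 0.11), with its KI liver values on both sides of the WT values and its skin values on few counts. The intervals were -1.003 to 0.75 for Hp, -1.59 to 1.28 for Orm1 and -0.83 to 3.46 for Lcn2, so none of these genes was shown to move differently in the 2 tissues or alike. Hamp and Saa4 entered this test through the liver, and their skin values of at most 4 and 15 counts give no usable skin difference. Saa1 had an interval of -4.41 to 9.37.

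The genes whose pattern over the 7 livers was most like the mean pattern of the 8 tested genes were Ms4a4c, Txk, Coro1b, Ralb and Fam78b, with Pearson r from 0.975 to 0.982 on the log2 scale among 14958 genes searched. Within the set, r with that mean was 0.92 for Lrg1, 0.91 for Hp, 0.82 for Lcn2 and 0.70 for Hamp, and -0.07 for Saa3 and -0.29 for Orm1, each of these genes being part of the mean it was compared with. Over the 7 skins the most similar genes were Cdh9, Syde2, Tob1, Eci3 and Sec24b, with r from 0.953 to 0.974, and the mean pattern there was closest to Hp (0.88) and Orm1 (0.83) and less close to Lrg1 (0.60). With so few libraries and so many genes searched, such values are a description only.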

How the data were processed

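Total RNA of 3 tissues of 2 KI and 5 WT mice was sequenced as paired-end reads. The authors trimmed the reads, aligned them to mm9 with TopHat2, and deposited raw read counts per gene symbol without normalization. The submitters' processing notes also name HTSeq and DESeq, and the annotation and counting options are not given in the sources used here. Of reads aligned to 1 place, 12.4% to 19.5% fell on no gene or on more than 1 and were left out.

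Counts were filtered with filterByExpr and TMM-normalized. KI and WT were compared within each tissue by quasi-likelihood tests (edgeR 4.0.16 under R 4.3.3), with Benjamini-Hochberg adjustment over all genes and calls under 0.1. The liver-minus-skin test used 14 libraries and the WT tissue tests all 21. DESeq2 1.42.0 was an alternative. The fits were tested on simulated counts with the same groups of 2 KI and 5 WT mice and 200 changed genes. Of simulated 2-fold changes, 58% were called in liver, 35% in skin, 20% in brain and 28% for liver minus skin. False calls numbered 23, 17, 14 and 11. A gene that was not called may thus still differ. Exon lengths came from GENCODE M1, promoters from RefSeq, and figures from matplotlib 3.10.9. A count of 0 was taken to allow up to 3 counts, which covers counting error only.

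The members and lists were chosen with earlier results of these data known. Named were all members, at most 4 genes per pathway list and tissue (called, with the largest change, KI and WT not overlapping), Il6, Stat3, Socs3, Cebpb, Cebpd, Jak1, Bmp6, Id1 and Smad7 whatever their values, and 5 genes of like pattern per tissue. Hamp2, Adipoq, Fabp4, Pparg, Cidec, Cd163, Smad6, Atoh8, S100a8, the fibrinogens and Crp were named after their values were seen. Libraries from different tissues that share genotype and number were treated as coming from 1 animal, because the study's methods give 7 mice in all. Liver and skin of a mouse correlated across genes at r 0.0208 to 0.177 after group means were removed.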

Additional observations from a re-analysis of the deposited data

Results flagged for a closer look

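In 6 of the 20 WT groups examined, a single mouse stood apart from the other 4 by Dixon's test. For normal values chance gives this in about 1 in 20 groups, but that rate does not apply here, since a group was examined only if its highest count reached 10, which can be the count of the outlying mouse itself. Saa1 in skin was 13.3 CPM in WT 2 and at most 0.0298 CPM in the other WT skins, and Saa2 in the same library was 0.609 CPM against 0 in the rest. Saa2 in brain was 0.838 CPM in WT 5, with 0.119 CPM as the next value. Lcn2 in skin was 28.8 CPM in WT 5, with 8.43 CPM next. Lrg1 in skin was 11.2 CPM in WT 3, below both KI skins, with 6.73 CPM next. Hamp in liver was 40.4 CPM in WT 2, with 22.4 CPM next.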

How the results depend on the processing

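With 2 KI mice several calls depend on single animals, and a fit without a KI mouse assumes that the remaining one varies like the WT mice. The 2 genes called in liver became 1 at an adjusted p under 0.05 and in the fit of all 21 libraries, and 1 to 3 when 1 mouse was left out (1 without KI 1, KI 2, WT 1 or WT 3). The 1 gene called in skin became 0 at an adjusted p under 0.05, and 0 to 1 with 1 mouse left out (1 only without WT 3). In brain 0 became 1 in the fit of all 21 libraries (Hp) and 0 to 1 with 1 mouse left out (Hp, without WT 5). The 0 called for liver minus skin held under every alternative, and the 25 WT tissue calls ranged from 23 to 25. Over all genes, the 833 liver calls became 383 (adjusted p under 0.05), 1489 (DESeq2), 242 (all 21 libraries), 379 (Y-linked expression as a covariate) and 56 (without KI 2) to 1290 (without WT 4) with 1 mouse left out, with 232 without KI 1. The 4 skin calls became 0, 107, 23 and 1 under these, and 0 to 1 with 1 mouse left out. The 0 brain calls became 604 with DESeq2, 614 in the fit of all 21 libraries and 1698 without WT 5, and the 11 calls of liver minus skin became 7 (adjusted p under 0.05), 140 (DESeq2), 18 (all 21 libraries) and 1 to 17 with 1 mouse left out. The cause of these changes was not tested.

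KI and WT share the replicate numbers 1 and 2 in the labels only, and same-numbered livers correlated at -0.0269 and -0.0932, brains at 0.0217 and -0.0952 and skins at 0.198 and 0.0363. With the replicate number as a block, WT 3, WT 4 and WT 5 have no KI mouse of their number. The KI effect then rests on KI 1 with WT 1 and KI 2 with WT 2, paired by label alone, so its calls are a description. In that edgeR fit liver had 2 calls, Lcn2 (adjusted p = 0.0858) in place of Hamp (0.101), and skin 0, with Lrg1 at 2.66 (adjusted p = 0.910). Genes called over the whole table were then 2165 in brain and 0 in skin, and 4 for liver minus skin with the mouse as a block. The block turned the direction of Id1 (-0.29) and Smad7 (-0.0126) in liver, Lcn2 in skin (0.0754) and Saa1 for liver minus skin (-1.13), none of them called. Stat3 (adjusted p = 0.112) and Tnfrsf1a (0.122) in liver and Cebpd (0.910) in skin lost their calls under it, and Cebpd (0.0608) and Bmp6 (0.052) in liver gained one. The mouse as a block changed no call of liver minus skin among the members, and gave 23 calls between WT tissues, where Saa1 was not tested.

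Smad7 in liver also turned with the Y-linked covariate (-0.0791). With 1 mouse left out, log2 differences that changed sign ranged from -1.06 to 1.26 for Saa3, -0.077 to 0.31 for Id1 and -0.13 to 0.19 for Smad7 in liver, and from -1.06 to 0.19 for Lcn2, -0.53 to 0.032 for Orm1, -0.042 to 0.43 for Cebpb and -0.056 to 0.62 for Bmp6 in skin. For liver minus skin they ranged from -5.36 to 10.19 for Saa1, -0.28 to 0.021 for Hp, -0.34 to 0.042 for Orm1 and -0.46 to 1.02 for Orm2. In WT tissues they ranged from -3.93 to 4.65 for Saa1 and -0.13 to -0.069 for Saa2 (0.36 with all mice) in liver minus skin, and from -3.64 to 4.75 for Saa1 in skin minus brain. Of 977 comparisons of a named gene's value with an alternative, 875 kept direction and call, 64 lost a call, 14 gained one and 24 changed direction. These include the stricter threshold on the same fit, which cannot change direction. They also include genes that were not called and the differences between WT tissues. The share kept is thus no measure of how steady the KI calls were. Genes with few counts (Saa1, Saa2, Orm2, and nearly all in brain) are limited by depth.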
